A study of Mus musculus with 2 samples.

Results

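The 10 genes described here carry lipid into, within and out of macrophages: the liver X receptors Nr1h2 and Nr1h3, the efflux transporters Abca1 and Abcg1, the secreted carriers Apoe and Pltp, lipoprotein lipase (Lpl), the fatty acid-binding proteins Fabp4 and Fabp5, and the lipid droplet protein Plin2. They were chosen by symbol for this shared function, and each symbol matched 1 of the 55536 annotated genes in the tables, with 68 annotated transcripts between them. The data are total RNA-seq of the cytosolic fraction of macrophages grown from bone marrow of C57BL/6J mice, a primary cell type that was checked against its markers below. All libraries belong to 1 group of 2 biological replicates. The cells of both had been given 100 ng/ml lipid A (the TLR4-binding portion of bacterial endotoxin) for 12 h, kept without it for 12 h, and given 100 ng/ml again for 75 min, and ribosomal RNA was depleted from 1 µg of fractionated RNA. The labels do not record the sex or age of the animals. They name 1 donor code for both replicates, so the difference between these 2 samples may be technical. The p-values below rest on counting error or on an assumed variation, and measure no spread between animals. Untreated cells were not analysed here, so none of the levels below measures a response to lipid A.

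Liver X receptors are nuclear receptors that bind oxidised sterols and, paired with a retinoid X receptor, switch on genes that lower free cholesterol in the cell. Abca1 passes cholesterol and phospholipid to lipid-poor apolipoproteins, Abcg1 passes cholesterol to mature high-density lipoprotein, and Apoe and Pltp are secreted to carry and to remodel lipid outside the cell. Fatty acids enter by another route: Lpl frees them from triglyceride, Fabp4 and Fabp5 carry them in the cytosol, and Plin2 coats the droplets in which their esters are stored. In macrophages these genes are best known from the handling of engulfed lipoprotein and dying cells.

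Expected counts over annotated genes came to 64187219 in replicate 1 and 49429864 in replicate 2, and the members had between 1516 and 122767 expected counts each, so counting error was small for all 10. Levels are given in TPM, a share of all transcripts in the library that is corrected for transcript length, which allows genes to be compared within a library. The structured RNA 7SL took 62.9% and 60.3% of all TPM, which lowers the TPM of other genes without changing their ratios within a library. All 12 macrophage markers were detected (at least 1 TPM in both libraries), 9 of them at 100 TPM or more in both, and Lyz2 was the highest at 2913 and 3115 TPM in replicates 1 and 2. The 8 adipocyte markers summed to 0.010 and 0 TPM and the 5 hepatocyte markers had no count at all, which bears on these genes because fat cells and liver also make Fabp4, Lpl, Apoe and Pltp. Of 52 markers from 8 other lineages, 45 were under 1 TPM in both libraries and 1, Cd4, reached 10 in both, at 16.7 and 14.1. The neutrophil markers summed to 7.71 and 14.1 TPM, led by S100a9 at 3.14 and 7.31, with Ly6g at 0. Cd79b led the B cell markers at 1.07 and 1.73, and Vwf led the stromal and endothelial ones by mean, at 3.13 and 1.51, with Kdr, named after its values were seen, at 2.34 and 2.12. The highest dendritic cell marker by mean, Zbtb46, stood at 0.070 and 0.10, and the highest erythroid one, Hba-a1, at 0.020 and 0.

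All 10 genes were detected, against 16.7% of annotated genes and 40.0% of the 22028 protein-coding ones, but they are genes known from macrophages, so the count describes the choice of members as much as the cells. Of the 10, 4 were high (at least 100 TPM in both libraries) and 6 were moderate (10 to under 100), counting a gene whose libraries differ in band in the lower band. Fabp5, Apoe, Plin2 and Pltp were the high ones. The median of the 10 was 81.3 ± 2.47 TPM (mean ± SD, n = 2, as for every ± below), against 7.5 ± 0.46 for all 9302 detected genes. Fabp5 and Apoe stood far above the rest and together held 79.2% and 79.7% of the members' summed TPM in replicates 1 and 2. The 10 genes held 0.999% and 1.06% of all protein-coding TPM.

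**Figure D1:**
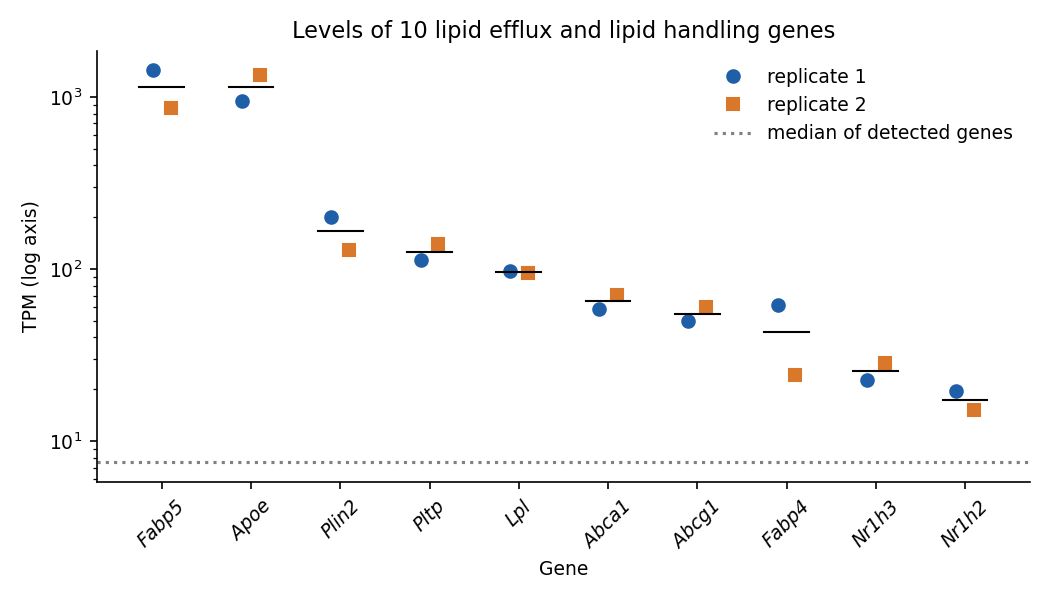
TPM of each of the 10 genes (vertical log axis) in replicate 1 (circles) and replicate 2 (squares), with the mean as a bar and the mean median of all detected genes, 7.5, as a dotted line. Fabp5 and Apoe sit near 1146 and 1141, the other 8 genes lie between 15.1 and 200.7, and Fabp4 has the widest gap between its points relative to its level.

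By mean TPM the order was Fabp5, Apoe, Plin2, Pltp, Lpl, Abca1, Abcg1, Fabp4, Nr1h3 and Nr1h2. Of the 9 pairs of neighbours in that order, 5 had overlapping libraries: Fabp5 with Apoe, Plin2 with Pltp, Abca1 with Abcg1, Abcg1 with Fabp4, and Fabp4 with Nr1h3. The order within a library was the same in both libraries for 5 of the 9 pairs. The step from Apoe down to Plin2 was the widest, 4.70-fold in replicate 1 and 10.4-fold in replicate 2.

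The 2 receptor genes were the lowest of the group by mean TPM, although Fabp4 lay below Nr1h3 in replicate 2. Nr1h3 encodes LXR alpha, the form found in macrophages, liver and fat, and lies on mm10 at chr2:91184061-91202834 on the minus strand. It stood at 22.6 TPM in replicate 1 and 28.4 in replicate 2 (25.5 ± 4.12). Nr1h2 encodes LXR beta, the form made in most tissues, and lies at chr7:44549616-44553951 on the minus strand. It stood at 19.4 and 15.1 TPM (17.2 ± 3.08). Nr1h3 was thus the higher receptor in both libraries and the libraries do not overlap, but the ratio was 1.16 in replicate 1 and 1.89 in replicate 2, a log2 ratio of 0.56 ± 0.49. No test was run on this ratio or on the other ratios within a library.

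The receptors' partners and cofactors lay in the range of the receptors or below it, apart from Ncor1. Of 9 genes in that list 8 were detected, 4 of them moderate and 4 low. The corepressor Ncor1 was the highest at 43.0 ± 2.45, and the coactivator Ncoa3 stood at 19.7 ± 1.15. Rxra, the retinoid X receptor usual in myeloid cells, stood at 10.3 and 11.3 TPM, Rxrb at 5.13 and 4.94, and Rxrg had no count in either library.

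Both receptor genes were spread over several transcripts. Isoform share here is a transcript's percent of its gene's TPM, taken from the alignment-based table unless the read-based table is named. Nr1h2-201 took 38.1% and 43.0% in replicates 1 and 2, Nr1h2-203 took 27.8% and 19.4%, and Nr1h2-202 took 23.3% and 22.0%. These forms differ in their coding sequence by 9 bases at chr7:44552237-44552245, which Nr1h2-201 includes and Nr1h2-203 leaves out. The sequences printed show that difference, which separates the 2 forms of the receptor message, with the 9 bases in capitals (GENCODE M21 transcripts, 5′ to 3′ on the minus strand).
Nr1h2-201: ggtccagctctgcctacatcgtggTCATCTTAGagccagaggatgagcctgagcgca
Nr1h2-203: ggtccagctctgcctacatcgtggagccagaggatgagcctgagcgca
Summed over transcripts, those with the longer coding sequence of 1338 bases held 43.3% and 48.6% and those with 1329 bases held 51.1% and 41.3%. The means, 45.9% ± 3.75 and 46.2% ± 6.93, differ by less than the spread between libraries, and the larger form was not the same in both. The read-based table gave 44.7% ± 5.14 and 45.04% ± 6.93.

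Nr1h3 differed from Nr1h2 in that its leading transcripts share 1 coding sequence. Nr1h3-201, Nr1h3-202 and Nr1h3-204 begin at different first exons and carry the same 1335 coding bases. Nr1h3-201 took 62.0% and 57.9%, Nr1h3-202 took 22.7% and 21.5%, and Nr1h3-204 took 8.06% and 11.4%. Together they held 91.8% ± 1.43 of the gene's TPM. Retained-intron transcripts held most of the rest, 5.91% in replicate 1.

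The 2 efflux transporters were made at nearly equal levels. Abca1 (chr4:53030787-53159895, minus strand) stood at 58.4 TPM in replicate 1 and 70.9 in replicate 2 (64.6 ± 8.87). Abcg1 (chr17:31057675-31117988, plus strand) stood at 49.96 and 59.95 TPM (55.0 ± 7.06). Their ratio hardly varied, 1.17 in replicate 1 and 1.18 in replicate 2, a log2 ratio of 0.23 ± 0.013. The transporters were alike per length, whereas Abca1 drew more of the reads, 65764 and 65243 expected counts against 31050 and 30747, from a leading transcript of 10262 against 5832 bases. Each gene was nearly all 1 transcript: Abca1-201 took 100% and 99.4% and Abcg1-201 took 98.5% and 99.1%. The read-based table put Abcg1-201 lower, at 87.2% and 94.8%, with 9.12% and 1.76% on the short Abcg1-203. Abca7, a related transporter of phospholipid, stood at 0.740 and 1.32 TPM, and Scarb1, the high-density lipoprotein receptor, at 12.8 and 12.2.

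Abca1 is a textbook LXR target, so its promoter was searched for the paired half-sites to which an LXR with its partner binds. RefSeq promoters on GRCm38.p6, running from 250 bases before to 50 after a gene's start, were given for 6 of the 10 genes, in 9 sequences. The LXR-type motif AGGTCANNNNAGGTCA was sought on both strands with up to 3 mismatches, a loose rule that 21.9% of 32544 promoters meet. Among the 9 sequences, that of Abca1 alone met it, with 3 mismatches on the opposite strand, at positions -67 to -52 from the start. The promoter of Abca1, at chr4:53159846-53160145 on the minus strand, is printed with that match in capitals.
Abca1 promoter: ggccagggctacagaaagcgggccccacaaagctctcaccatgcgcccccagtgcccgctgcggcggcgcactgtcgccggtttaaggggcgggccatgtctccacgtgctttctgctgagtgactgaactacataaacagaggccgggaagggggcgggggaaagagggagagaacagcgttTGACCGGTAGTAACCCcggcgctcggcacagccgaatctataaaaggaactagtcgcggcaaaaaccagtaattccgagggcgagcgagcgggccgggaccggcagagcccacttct
The match is a likeness of letters and no binding was measured. The other sequences, those of Apoe, Nr1h2, Nr1h3, Plin2 and Pltp, do not meet the rule in this window.

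Of the 2 secreted carriers Apoe was far the more abundant. Apoe (chr7:19696109-19699188, minus strand), the apolipoprotein that macrophages secrete to receive effluxed cholesterol, stood at 942 TPM in replicate 1 and 1341 in replicate 2 (1141 ± 282). It ranked 25th and 14th among protein-coding genes in the 2 libraries. Pltp (chr2:164839518-164857711, minus strand), the phospholipid transfer protein, stood at 112 and 139 TPM (125 ± 19.0). Apoe exceeded Pltp 8.42-fold and 9.66-fold, a log2 ratio of 3.17 ± 0.14, so this gap was far wider than its spread.

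The other apolipoprotein genes lay far below Apoe. Apoe lies in a cluster of 6 protein-coding genes spanning 43.9 kb. In it Apoc2, the activator of lipoprotein lipase, stood at 9.76 and 9.42 TPM and Apoc1 at 1.26 and 1.60, while Apoc4 stood at 0.080 and 0.040. Apoc1, Apoc2 and Apoc4 are known to share LXR-responsive enhancers with Apoe in macrophages. Tomm40, a mitochondrial import gene at the cluster's other edge that was named after its values were seen, stood at 10.04 and 11.0. Of 7 apolipoprotein genes elsewhere, none was detected: Apoa2 was the highest at 0.370 and 0.220 TPM, Apod stood at 0.20 and 0.21, and 5, Apoa1 and Apob among them, had no count.

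**Figure D2:**
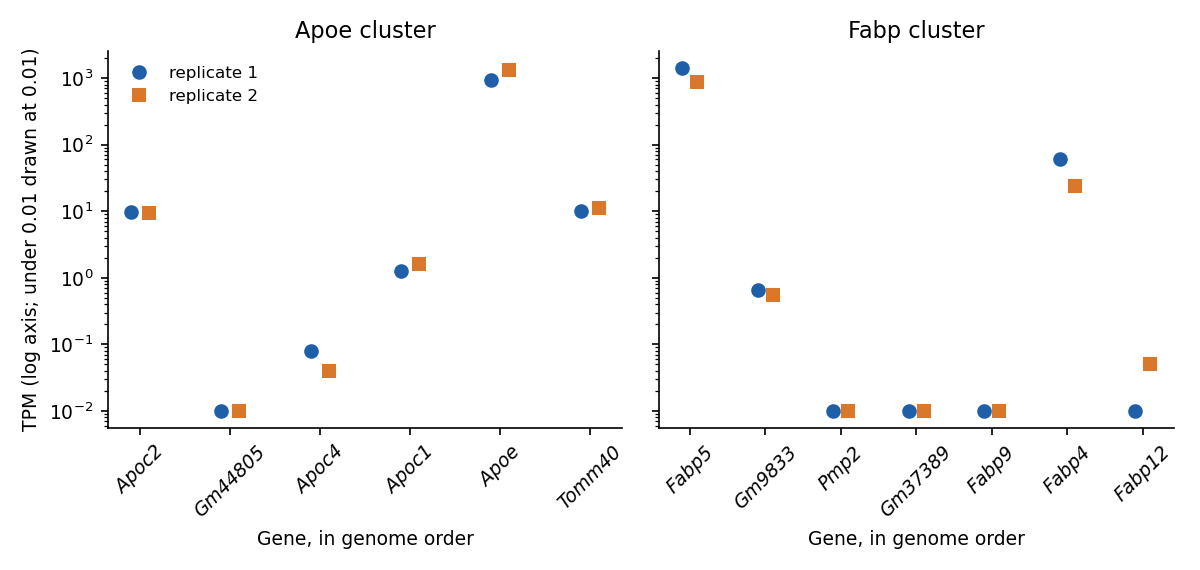
TPM (vertical log axis, values under 0.01 drawn at 0.01) of the protein-coding genes around Apoe (left) and around Fabp4 and Fabp5 (right), in genome order, for replicate 1 (circles) and replicate 2 (squares). Apoe lies near 1141 and its neighbours at or below 11.0, and in the other cluster Fabp5 and Fabp4 stand out from 5 genes under 1.

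A sizeable share of Apoe TPM was assigned to a transcript with no annotated coding sequence. Apoe-209, which codes for the full protein in 933 bases, took 64.9% and 64.7%. Apoe-206, which has as many coding bases and reaches further at both the 5′ and the 3′ end, took 9.77% and 13.1%. Apoe-202, a processed transcript, took 24.8% and 21.8%, or 15.4% and 13.1% of the gene's expected counts, since it is shorter. The read-based table put it at 29.2% and 25.1%. Apoe-202 lacks 386 bases of the last exon, at chr7:19696338-19696723, of which 341 are coding in Apoe-209. The sequence printed, at chr7:19696700-19696747 on the minus strand, is the part of that exon where the missing stretch begins, with its first bases in capitals, and it is shown because this junction is what sets Apoe-202 apart.
Apoe last exon: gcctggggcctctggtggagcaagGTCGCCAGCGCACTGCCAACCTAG
The missing stretch starts with GT and ends with AG. The 4 transcripts with all 933 coding bases held 76.4% ± 2.11 of Apoe TPM, and 72.5% ± 2.92 in the read-based table.

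The isoform shares of Pltp depended on the table. Pltp-201 led with 79.0% and 91.6%, and 87.6% and 91.2% in the read-based table. Pltp-203, which skips an exon of 156 coding bases at chr2:164854266-164854421, took 11.1% in replicate 1 and 0.72% in replicate 2 in the alignment-based table and 0% in both by the read-based one. Its new junction is printed, with the bases after the skipped exon in capitals, because the reads over it decide between these values.
Pltp-203: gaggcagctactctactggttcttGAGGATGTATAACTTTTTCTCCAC
Pltp-202 took 5.36% and 3.40%. The 3′ end of Pltp overlaps Ctsa, a lysosomal carboxypeptidase gene on the opposite strand, which was named after its values were seen and had 48972 and 44750 expected counts. The overlap covers 13.9% of the 31-base words in Pltp transcripts, and whether the counting used strand is not given in the sources used here, so part of the Pltp level is uncertain.

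Lpl had the smallest relative gap between libraries in TPM, though not in read-based TPM, where it stood at 56.4 and 41.5. Lpl (chr8:68880491-68907448, plus strand), the lipase that frees fatty acids from lipoprotein triglyceride, was at 97.7 TPM in replicate 1 and 95.2 in replicate 2 (96.4 ± 1.74), nearly all as Lpl-201 (99.6% and 99.6%). Few of the other listed lipases and lipase regulators were detected. Of the 10 in that list 3 were detected, all low. Apoc2, the activator of Lpl, was counted with the LXR targets instead and stood higher, at 9.76 and 9.42 TPM. Lipg, endothelial lipase, stood at 6.74 and 3.54, and Lmf1, which matures these lipases, at 3.06 and 2.99. Gpihbp1, which holds Lpl on capillaries, had no count, and Vldlr, a lipoprotein receptor, had 4 and 3 counts.

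The 2 fatty acid-binding protein genes lie in 1 cluster and differed more than 20-fold. Fabp5 (chr3:10012548-10016607, plus strand), the epidermal form, stood at 1425 TPM in replicate 1 and 866 in replicate 2 (1146 ± 396), 13th and 21st among protein-coding genes. Fabp4 (chr3:10204088-10208576, minus strand), the form known from fat cells and macrophages, stood at 61.4 and 24.01 TPM (42.7 ± 26.5). Fabp5 was the higher 23.2-fold and 36.1-fold, a log2 ratio of 4.85 ± 0.45. Of the 5 other protein-coding genes in their 289 kb cluster, Fabp9 had no count and Fabp12 had 0 and 2 counts. Pmp2, a myelin form named after its values were seen, had 0 and 1, and the rest were under 1 TPM.

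Elsewhere in the family, Fabp3, the heart form, stood at 28.3 and 20.5 TPM and Fabp7, the brain form, at 0.050 and 0.020, while Fabp1, Fabp2 and Fabp6 had no count. Of the 15 other genes of fatty acid uptake, binding and activation 9 were detected, 7 of them moderate and 2 low. Dbi, which binds acyl-CoA, stood at 46.9 and 32.3, Cd36, the scavenger receptor that takes up fatty acids, at 34.7 and 39.5, and Acsl1, which activates fatty acids, at 31.4 and 27.0.

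Both genes were almost wholly their spliced coding transcript. Fabp5-201 took 99.9% and 99.9% and Fabp4-201 took 99.9% and 99.4%. Their retained-intron transcripts held few counts and did not move with the spliced ones: Fabp4-202 had 33.2 and 49.3 expected counts while Fabp4-201 had 4650 and 1467, and Fabp5-202 had 291 and 325 while Fabp5-201 had 122476 and 60380. These differences were read after the values were seen and were not tested. Fabp5 has processed pseudogenes that could take some of its reads. Gm6166 shares 260 of the 3592 31-base words of the 2 Fabp5 transcripts pooled (7.24%) and had 146 and 69.1 expected counts. Gm14328 shares 161 (4.48%) and had 365 and 196. The pool is drawn largely from Fabp5-202, of 3238 bases against 987 in Fabp5-201, so these percents understate any likeness to Fabp5-201, whose own share was not measured. The read-based table gave them fewer, 21.35 and 11.35 counts for Gm6166 and 11.06 and 5.04 for Gm14328 in replicates 1 and 2.

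Plin2 was the highest perilipin gene in these cells. Plin2 (chr4:86648386-86670060, minus strand) stood at 200.7 TPM in replicate 1 and 129 in replicate 2 (165 ± 50.3). Lpl lay below it in both libraries, at a log2 ratio of -0.74 ± 0.42. Plin3, the ubiquitous relative, stood at 9.77 and 7.18, Plin4 had 1 and 4 counts, and Plin1 and Plin5, the coats of fat cells and oxidative tissue, had none. Of the 18 other lipid droplet genes 8 were detected, led by Bscl2 (seipin, which shapes new droplets) at 21.3 and 16.8, Pnpla2 (the triglyceride lipase) at 11.0 and 9.65, and Abhd5 (its activator) at 10.8 and 8.32.

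Plin2-201 took 80.8% and 85.0% of the gene's TPM, Plin2-208, with no coding sequence, took 12.6% and 9.29%, and Plin2-207 took 5.68% and 5.04%. The promoter of Plin2 was searched for the motif AGGTCANAGGTCA, the kind bound by PPAR receptors with a retinoid X receptor, which 24.7% of the 32544 promoters meet with up to 3 mismatches on either strand. The Plin2 promoter held 2 matches, of which 1 was located, with 2 mismatches on the opposite strand at positions -225 to -213. An Apoe sequence also held 2 matches, and the 1 located there had 3 mismatches. The Plin2 promoter, at chr4:86670010-86670309 on the minus strand, is printed with the located match in capitals, since Plin2 is a known PPAR target.
Plin2 promoter: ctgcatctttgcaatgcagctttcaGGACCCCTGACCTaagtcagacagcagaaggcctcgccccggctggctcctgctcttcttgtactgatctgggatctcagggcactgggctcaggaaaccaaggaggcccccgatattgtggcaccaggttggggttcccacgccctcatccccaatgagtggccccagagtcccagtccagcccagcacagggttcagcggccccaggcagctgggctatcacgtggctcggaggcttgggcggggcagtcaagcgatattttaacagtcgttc
The receptors themselves were low, with Pparg at 6.81 and 4.69 TPM and Ppard at 5.31 and 4.64, and Ppara had no count. Of the 5 genes of PPAR receptors and coactivators 2 were detected, and the coactivator gene Ppargc1b stood at 0.980 and 1.19.

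**Figure D3:**
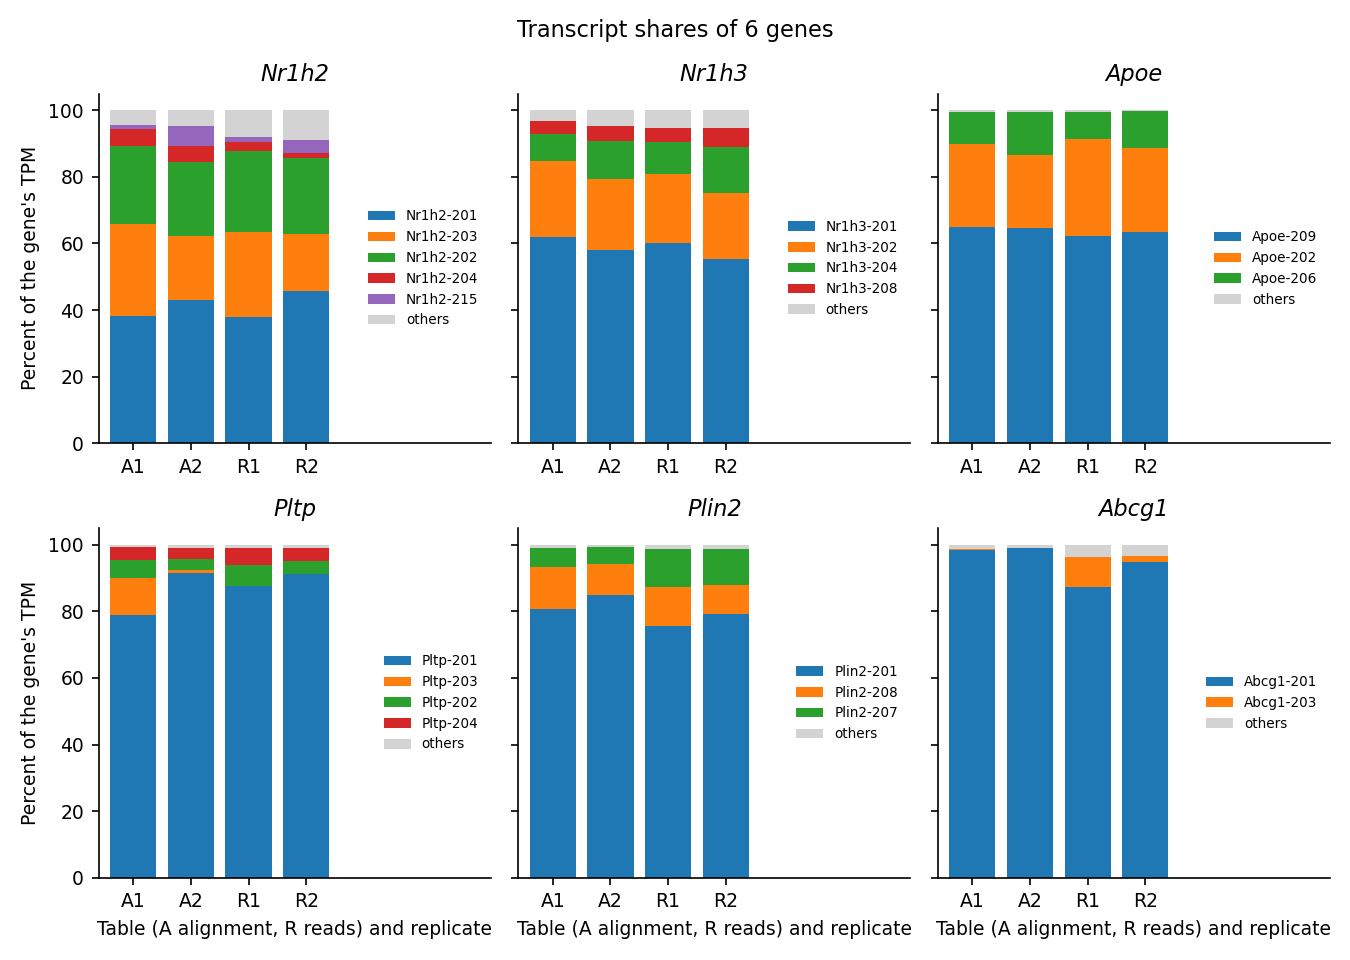
Stacked shares of each gene's TPM (vertical axis, percent) taken by its transcripts, for the 6 genes with the most divided shares, by table and replicate (A1 and A2 alignment-based, R1 and R2 read-based). Transcripts under 5% in every bar are pooled as others. The leading transcript is the same in all 4 bars of each gene, and Pltp-203 shows chiefly in A1, at 11.1%.

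The members did not all differ between the libraries in 1 direction. Replicate 2 was compared with replicate 1 by a two-sided exact binomial test on rounded expected counts, with library sizes scaled by TMM and Benjamini-Hochberg adjustment over 13298 genes. This test holds counting error only and compares 2 libraries of the same treatment, not conditions. At an adjusted p under 0.05 and at least 2-fold, 1 member was lower in replicate 2, where 2.52% of all tested genes were, and none was higher, where 3.01% were. The single member was Fabp4, 2.38-fold lower in replicate 2 (log2 ratio -1.25, exact binomial adjusted p = 5.3e-212). With edgeR's exact test and an assumed biological coefficient of variation of 0.2, which called 0.361% of genes lower, Fabp4 kept its ratio and was not called (edgeR exact test, adjusted p = 0.17, unadjusted p = 2.8e-03), and 0 members were called; Fabp4 was also the single member with an unadjusted p under 0.05 there.

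With no fold minimum, all 10 members differed beyond counting error, 4 lower and 6 higher in replicate 2, against 31.1% and 25.3% of genes. At this depth counting error is so small that the sizes say more. Apoe had a log2 ratio of 0.62, Nr1h3 of 0.42, Pltp of 0.41, Abca1 of 0.37 and Abcg1 of 0.36, while Lpl was nearly level at 0.055. Nr1h2 had one of -0.35, Plin2 of -0.49 and Fabp5 of -0.64. Among the 5607 genes with at least 1000 counts in both libraries the log2 ratio had an SD of 0.32 and a median of -0.019. Of those genes, 97.7% had a ratio below that of Apoe, and 89.4% to 92.1% below those of Nr1h3, Pltp, Abca1 and Abcg1. At the other end, 12.7% lay below Nr1h2, 5.44% below Plin2, 2.39% below Fabp5 and 0.21% below Fabp4. So in TMM-scaled counts, Lpl apart, the efflux genes and LXR alpha lay on one side. The fatty acid carriers, the droplet coat gene and LXR beta lay on the other. This split was read after the values were seen and was not tested. Fatty acid genes outside the 10 went both ways, among them Cd36 at 0.27 and Dbi at -0.48. Each member but Lpl was more than 1 SD from the median of those 5607 genes on this scale, Nr1h2 only barely.

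These directions and distances depend on the scale, and the distances also on the genes they are measured against. Over detected genes the median log2 ratio was -0.14 in TPM, 0.049 in TPM of protein-coding genes and -0.55 in read-based TPM. The SD was 0.40 in TPM and in TPM of protein-coding genes, and 0.56 in read-based TPM. Nr1h2 lay within 1 SD of the median in TPM (-0.37) and in TPM of protein-coding genes (-0.18). In read-based TPM every member but Apoe, Fabp5 and Fabp4 lay within 1 SD of the median. In read-based TPM the ratios of Abca1, Abcg1, Nr1h3 and Pltp turned to -0.11, -0.23, -0.083 and -0.085, which are above that scale's median, and Apoe kept a positive sign at 0.074. Nr1h2, Plin2, Fabp5 and Fabp4 were negative on every one of the 4 scales and Lpl changed sign among them. In a bulk sample, fewer cells of a type and less RNA per cell cannot be told apart. Macrophage markers summed to 6200 and 6608 TPM, with Adgre1 at 358 and 706, Itgam at 24.4 and 37.3 and Cd14 at 270 and 178, and the part of cell makeup or cell state in the members' differences was not tested.

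**Figure D4:**
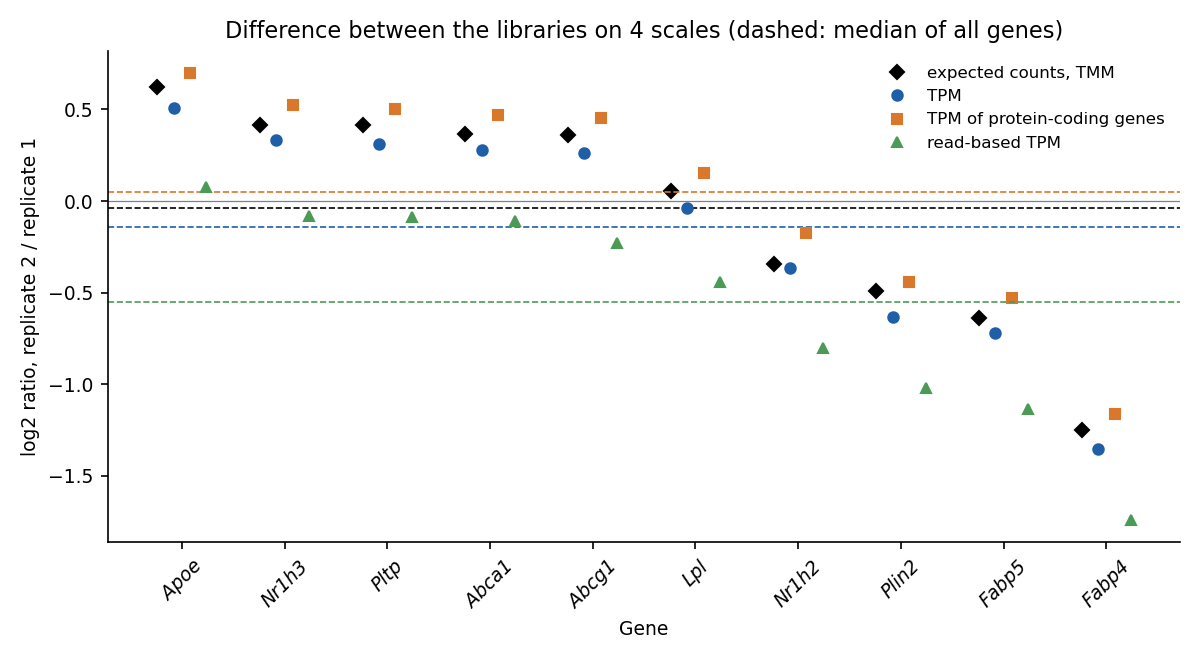
Log2 ratio of replicate 2 to replicate 1 (vertical axis) for each of the 10 genes on 4 scales, with the median over genes on each scale as a dashed line of the same colour. The genes have the same order on all 4 scales, from Apoe to Fabp4, while the whole set sits lower in read-based TPM, whose median is -0.55.

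The wider lipid pathways were followed in 9 lists of 110 genes, of which 109 matched an annotated gene and 66 were detected. Between the libraries, 74 of them could be tested; 2 were called lower in replicate 2 and 0 higher, against the same 2.52% and 3.01% of all genes. Hilpda, a hypoxia-inducible droplet protein that inhibits the lipase Pnpla2, had 659 and 135 expected counts (log2 ratio -1.91). Scd1, a fatty acid desaturase, had 1131 and 347 (log2 ratio -1.33). Both were named after their values were seen. The median log2 ratio of the 74 genes was 0.015, against -0.038 over all genes tested.

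Among other LXR targets 12 of 16 were detected, 5 of them moderate. Cd5l, a secreted protein that macrophages make on LXR activation, stood at 67.7 and 87.3 TPM, Scd2, a desaturase, at 57.03 and 60.4, and Smpdl3a, a phosphodiesterase, at 59.6 and 44.3. Mylip, the ligase that degrades lipoprotein receptors, stood at 30.6 and 18.7 and Srebf1, which drives fatty acid synthesis, at 9.59 and 13.5. The targets known from liver and gut, Abcg5, Abcg8 and Cyp7a1, had no count. The list's median log2 ratio between libraries was 0.25, and its members lay on both sides: Srebf1 had 0.47, Cd5l had 0.45 and Mylip had -0.62, and none of these 3 was called. The 1 called member was Scd1 at -1.33, and Fasn, fatty acid synthase, which was named after its values were seen, had 0.96 and was not called.

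Lysosomal and storage genes for sterol were the most abundant of the wider lists, with 9 of 13 detected and 3 high. Npc2, which hands cholesterol out of the lysosome, stood at 277 and 220 TPM, Lipa, the lysosomal lipase that frees it from esters, at 140 and 132, and Soat1, which makes esters for storage, at 133 and 130. All 3 stand above both efflux transporters in both libraries, and Npc2 also above Plin2 and Pltp. Of the SREBP2 gene and its targets, which serve cholesterol synthesis and uptake, 15 of 16 were detected and none was high. Insig1, which holds SREBP proteins back, stood at 41.7 and 30.4, and Msmo1 and Hmgcs1, enzymes of synthesis, at 32.6 and 31.7 and at 26.8 and 25.5.

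**Figure D5:**
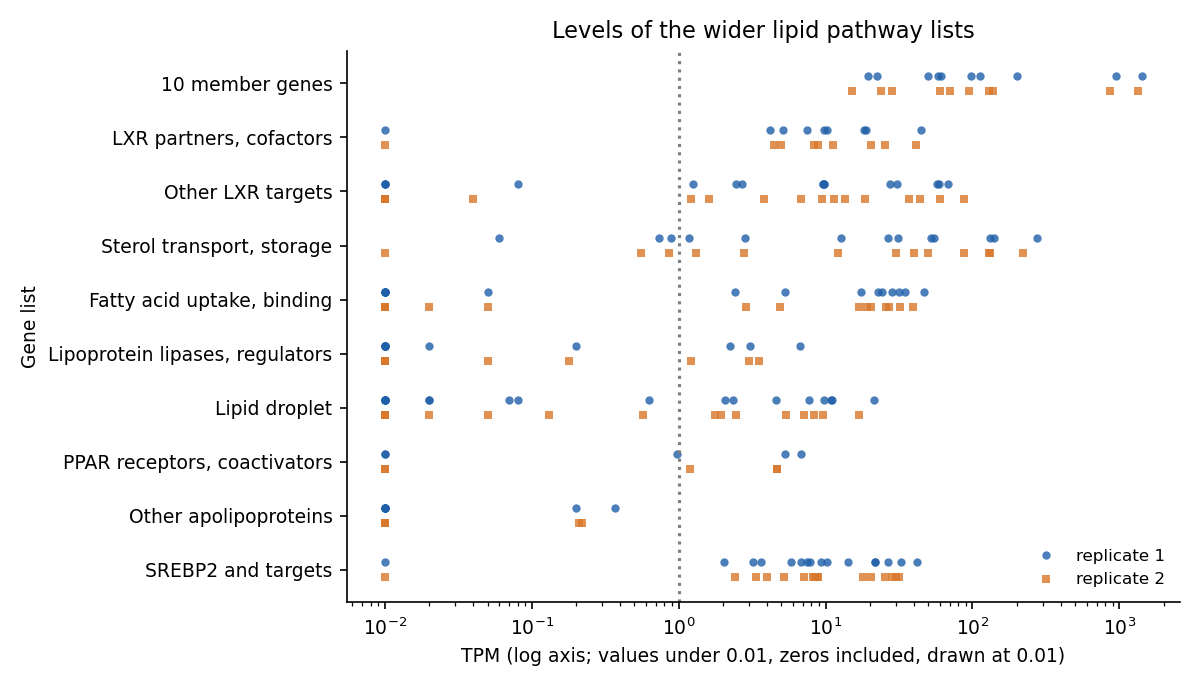
TPM (horizontal log axis, values under 0.01 drawn at 0.01) of every gene of the 10 members and of the 9 wider lists, for replicate 1 (circles) and replicate 2 (squares), with the detection limit of 1 dotted. Every member lies right of 15, the LXR partner and SREBP2 lists have 1 gene each at 0, and every other wider list has 3 or more genes left of the limit in replicate 1.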

How the data were processed

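Each of the 2 libraries came with alignment-based tables of genes and of transcripts and with a read-based table of transcripts. Build mm10 and annotation GENCODE M21 are named in text deposited beside the tables. For aligner, quantifiers and strandedness: not given in the sources used here. Expected counts, as the authors deposited them, are estimates that carry no scaling for depth. Deposited TPM values are corrected for length and scaled over all 81881 features. The deposited FPKM values are scaled for length and mapped fragments, per the file headers. Isoform percent values, deposited by the authors, are each transcript's part of gene TPM. Of the features, 26345 are not annotated genes and took 0.110% (replicate 1) and 0.112% (replicate 2) of expected counts. These were left out of tests.

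The 10 members and all lists were chosen with earlier results of these data known. Named beside the members were the 3 highest genes of each pathway list and a preset set (Rxra, Rxrb, Fabp3, Fabp7, Plin3, Scarb1, Abca7, Ppard, Pparg, Srebf1, Mylip, Cd36), the highest of each marker list and markers at 10 TPM or more, near copies with at least 10 counts, and the leading transcripts. Some genes that this rule takes are not reported here. Others are said to be chosen after their values were seen. Ratios within a library are of log2(TPM + 0.1). Expected counts were rounded, library sizes scaled by TMM (edgeR 4.0.16, R 4.3.3), and genes with a mean count of at least 10 tested by an exact binomial test (scipy 1.17.1). With 2 libraries of 1 group there is no test between conditions and no measure of likeness between genes. Alternatives were other scalings (DESeq2 1.42.0), filters, edgeR's exact test at assumed coefficients of variation of 0.1 and 0.2, FPKM, CPM, the read-based table, and each replicate alone. The binomial test was checked on counts simulated with counting error alone, so the check does not cover other variation between libraries. Shared 31-base words were counted over annotated transcripts. Gene symbols were matched through the annotation, promoters by symbol to RefSeq.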

Additional observations from a re-analysis of the deposited data

How the results depend on the processing

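All 10 members were also detected at 5 TPM, at 10 expected counts and in the read-based table. Their median of 81.3 TPM was 291 when TPM was rescaled to protein-coding genes, 41.2 in the read-based table, and 79.6 to 83.1 with either replicate alone. The log2 ratio of Abca1 to Abcg1 (0.23) was 1.08 in CPM, which is not per length, and 0.12 in the read-based table. The ratio of Apoe to Pltp (3.17) was 2.28 in CPM, and that of Lpl to Plin2 (-0.74) reversed to 0.68 in CPM, since Lpl transcripts are longer. The other ratios moved by less than the spread between replicates. With 1 library at a time the ratios ran from 4.53 to 5.17 (Fabp5 to Fabp4), 0.22 to 0.24 (Abca1 to Abcg1), 0.22 to 0.91 (Nr1h3 to Nr1h2), 3.07 to 3.27 (Apoe to Pltp) and -1.04 to -0.44 (Lpl to Plin2). The binomial test called 735 genes and 1 member; with an assumed coefficient of variation of 0.2 edgeR called 138 and 0, and with no fold minimum the binomial test called 7506 and 10, the last because a criterion was dropped. Of 70 ratios of members between libraries under other settings 69 kept their direction, and Lpl (0.055) reversed to -0.016 in the read-based counts. The cause was not tested. Many of the 70 could not reverse, because dropping the count filter or the fold minimum, or using edgeR's test, leaves the ratio itself as it was. The TPM scales were not among these settings, and in read-based TPM the ratios of Abca1, Abcg1, Nr1h3 and Pltp were negative. Of 22 isoform shares 9 moved by more than the spread between replicates in the read-based table, and 18 lay within 5 percentage points. No paired analysis was possible because there is 1 group. With 2 libraries no spread of a single gene is known with precision, and nothing here separates treatment, culture and library.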
